A study of Mus musculus with 2 samples.

Results

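The enzymes that build triglyceride were followed here through 8 genes, Pck1, Gpam, Agpat2, Agpat3, Lpin1, Dgat1, Dgat2 and Pnpla3, out of 31053 genes with a row in both count tables. The members were chosen by name, each symbol had 1 row, and all 8 passed the filter of 50 counts in adipocyte-like nuclei. Their UMIs (unique molecular identifiers, which mark single captured RNA molecules) were summed for each class of nuclei in each library.

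The data are single-nucleus RNA-Seq of iWAT, the inguinal white adipose tissue under the skin, from male mice on a Western diet. One library is labelled Lexis WT and comes from Lexis-AdWT mice, which carry Lexis fl/fl without Cre. The other is labelled Lexis KO and comes from Lexis-AdKO mice, which carry Lexis fl/fl with adiponectin-cre, so that the long noncoding RNA Lexis is deleted where the adiponectin promoter is active, in adipocytes. Floxed alleles and diet were thus common to both groups, and each library pooled the tissue of 3 mice, with the lymph node stated as removed. The mice are on a C57BL/6 background, and their age in this experiment is not given in the sources used here.

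There was 1 library per genotype, so no test was possible and no p-value is given. Every interval below is a 95% interval for counting error only and does not cover how mice or preparations vary. The names of the deposited tables carry the opposite genotype to the sample labels for both libraries, and the transcript of Lexis was not analysed here. The genotypes hold only as labelled, and the groups are called the WT-labelled and KO-labelled library.

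Triglyceride is made from glycerol 3-phosphate by adding fatty acids one at a time. Glycerol-3-phosphate acyltransferases add the first fatty acid and 1-acylglycerol-3-phosphate acyltransferases add the next, which gives phosphatidic acid. Lipins remove the phosphate to give diacylglycerol, and diacylglycerol acyltransferases add the last fatty acid. White adipocytes store most of the triglyceride of the body and also make part of their glycerol 3-phosphate from non-carbohydrate precursors, a route that passes through phosphoenolpyruvate carboxykinase, the product of Pck1.

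Upstream stretches of Pck1 and Pnpla3 are shown because these genes had the highest levels per length in the KO-labelled library and differed most, Pnpla3 between the libraries and Pck1 between clusters of adipocyte nuclei. Both are the 250 bases before the RefSeq start in the build GRCm38.p6, on the plus strand, at chr2:173152823-173153072 for Pck1 and chr15:84167566-84167815 for Pnpla3. For Pnpla3 the promoter table uses a start inside the RefSeq gene span, which begins at 84167776, so the last bases printed lie within that span. Capitals mark matches, on either strand, to any of 5 short motifs that were searched.
Pck1: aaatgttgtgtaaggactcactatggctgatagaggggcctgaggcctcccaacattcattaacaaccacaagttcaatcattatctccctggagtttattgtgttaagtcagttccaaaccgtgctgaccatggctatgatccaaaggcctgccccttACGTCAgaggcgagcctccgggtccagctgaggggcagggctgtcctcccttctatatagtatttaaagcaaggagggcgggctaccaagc
Pnpla3: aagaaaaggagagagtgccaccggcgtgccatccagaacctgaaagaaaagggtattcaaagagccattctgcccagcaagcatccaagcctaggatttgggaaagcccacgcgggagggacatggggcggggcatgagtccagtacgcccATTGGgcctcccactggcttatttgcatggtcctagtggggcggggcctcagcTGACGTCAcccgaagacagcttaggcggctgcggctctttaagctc

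The motifs were ACGTCA, the core of the cAMP response element, the E-box CACGTG, the box with the letters CCAAT, the nuclear receptor half-site AGGTCA and the TATA box with the letters TATAAA. In the Pck1 stretch the 1 match was ACGTCA, beginning 91 bases before the start. In the Pnpla3 stretch ACGTCA matched on both strands in an overlapping palindrome, beginning 46 and 44 bases before the start, and CCAAT matched on the minus strand, with its match beginning 99 bases before the start. ACGTCA was found in 6.47% and CCAAT in 33.9% of all 32851 promoter stretches of the same length. CACGTG was in 6.02%, AGGTCA in 14.0% and TATAAA in 12.4% of them, and none of these 3 matched in either printed stretch. A match describes letters only and is not evidence of binding. Of the 8 genes, 6 had an entry in the promoter table, and Dgat1 and Dgat2 had none. In the other entries, AGGTCA matched in Lpin1, AGGTCA and ACGTCA in 1 of 2 starts of Gpam and CCAAT in the other, and Agpat2 and Agpat3 had no match to any of the 5.

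After filtering, 3503 nuclei were kept in the WT-labelled library and 2852 in the KO-labelled library, with medians of 1195 and 3879 UMIs per nucleus. Adipocyte-like nuclei numbered 418 and 895, with 1952968 and 8652942 UMIs and medians of 3652 and 7852 UMIs per nucleus. The merged nuclei formed 17 clusters, and different ones hold the adipocyte-like nuclei of the 2 libraries: cluster 4 has 418 nuclei of the WT-labelled library and 5 of the KO-labelled library, and cluster 1 has 890 of the KO-labelled library and 0 of the other. Pck1 is among the 10 leading genes of cluster 4 and Pnpla3 among those of cluster 1. Their high levels there may have helped to form the clusters, which was not tested. All 10 of 10 adipocyte markers were detected in the class in both libraries, at a summed 8538 and 11175 CPM (UMI counts scaled to a common total per class and library). Of these, 6 were higher in the KO-labelled library and 4 lower by their points: Plin4 at 2996 and 1737 CPM, Adrb3 at 954 and 581, Plin1 at 1716 and 1554, and Adipoq at 347 and 333. Adipoq in lymphocyte-like nuclei was 111 and 289 CPM, so that in the KO-labelled library it was little above that class. The libraries shared 10 cell barcodes among those past the filter.

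Markers of other cells also moved with the groups within the adipocyte-like class. The 17 lymphocyte markers summed to 369 CPM in the WT-labelled library, with Klrb1c at 0, and to 41.7 CPM in the KO-labelled library, with Blk and Klrb1c at 0. The 10 markers of adipogenic stem and precursor cells (ASPC) were all detected and summed to 1077 and 480 CPM, while the 14 myeloid markers summed to 328 and 324 CPM, with Xcr1 at 0 in the KO-labelled library. The 10 myocyte markers summed to 25.1 CPM with 3 detected in the WT-labelled library and to 98.1 CPM with 9 detected in the KO-labelled library. The 10 endothelial markers summed to 113 and 61.0 CPM, and the 6 epithelial markers to 11.3 and 0.116 CPM. The lymphocyte-like class held 57.3% of nuclei of the WT-labelled library and 2.49% in the KO-labelled library. The part of these in the differences below was not tested.

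**Figure D1:**
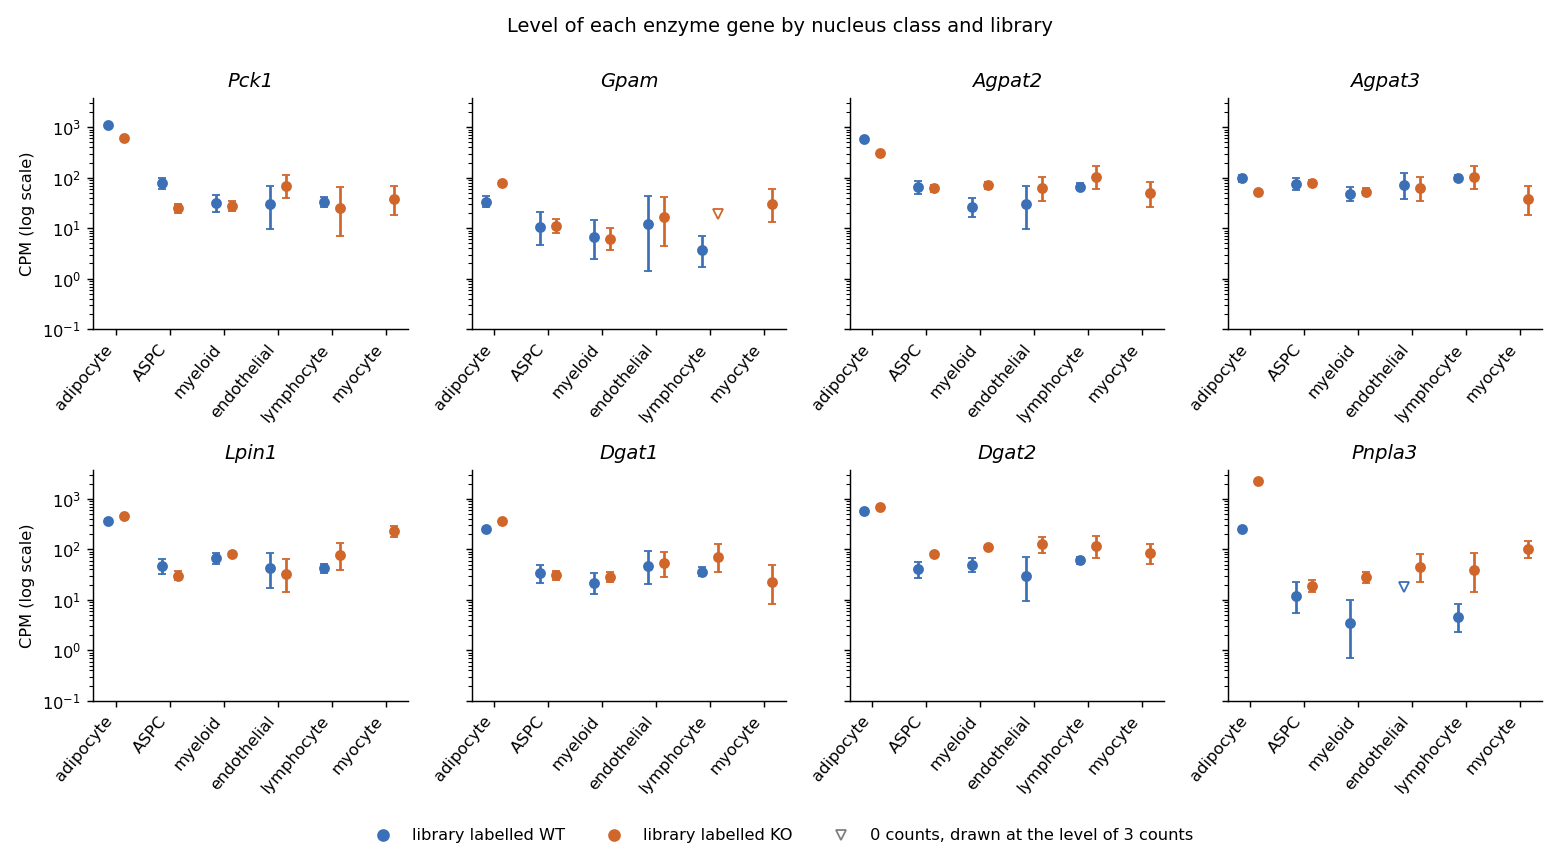
Scaled counts (CPM, log axis) of each enzyme gene in 6 classes of nuclei of the WT-labelled library and the KO-labelled library, with exact Poisson 95% intervals. Open triangles mark classes with 0 counts, drawn at the level of 3 counts. By their points, all genes but Agpat3 were highest in adipocyte-like nuclei of both libraries, and the points of Pnpla3 in that class lie 8.88 times apart.

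In adipocyte-like nuclei, 5 members were higher in the KO-labelled library beyond counting error (Gpam, Lpin1, Dgat1, Dgat2 and Pnpla3) and 3 were lower (Pck1, Agpat2 and Agpat3). By the same rule 36.3% of the 11359 genes with 50 or more counts were higher and 35.2% were lower, so genes at large went both ways too, and the interval of a gene narrows with its counts. Pnpla3 stood farthest out at 8.88 times higher, and Gpam was 2.37 times higher. The other members of the higher group were 1.25 to 1.46 times higher, and the lower 3 were at 0.530 to 0.540 of the level in the WT-labelled library.

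At a fold of at least 2, 2 of the 8 members were higher in the KO-labelled library, where 25.9% of these genes were. None of the 8 was lower by at least 2 times, where 17.6% of genes were. The median log2 ratio was 0.33 over the members and -0.0064 over all genes tested. These counts rest on how libraries are scaled: without mitochondrial genes and Malat1 in the total, 1 member was at least 2 times higher and 3 were at least 2 times lower, beside 21.7% and 26.2% of genes. Under TMM scaling the shares of genes were 31.3% and 9.75%. These scalings moved the median of all genes by -0.25 and 0.29 on the log2 scale, so each member is also placed below among the ratios of all genes, a place that scaling cannot change.

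Gene length moved with the ratios across all genes. The median log2 ratio was -0.90 for the 1237 genes whose introns sum to no more than 3000 bases, and 1.45 for the 1424 genes where they exceed 100000. Each member was therefore also set beside genes whose intronic length lies within 1.5 times its own. After a smooth fit on intronic length, Pnpla3 and Dgat1 were at least 2 times higher, beside 18.1% of genes, and Gpam no longer was. Agpat3 was then at least 2 times lower, beside 12.6% of genes.

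**Figure D2:**
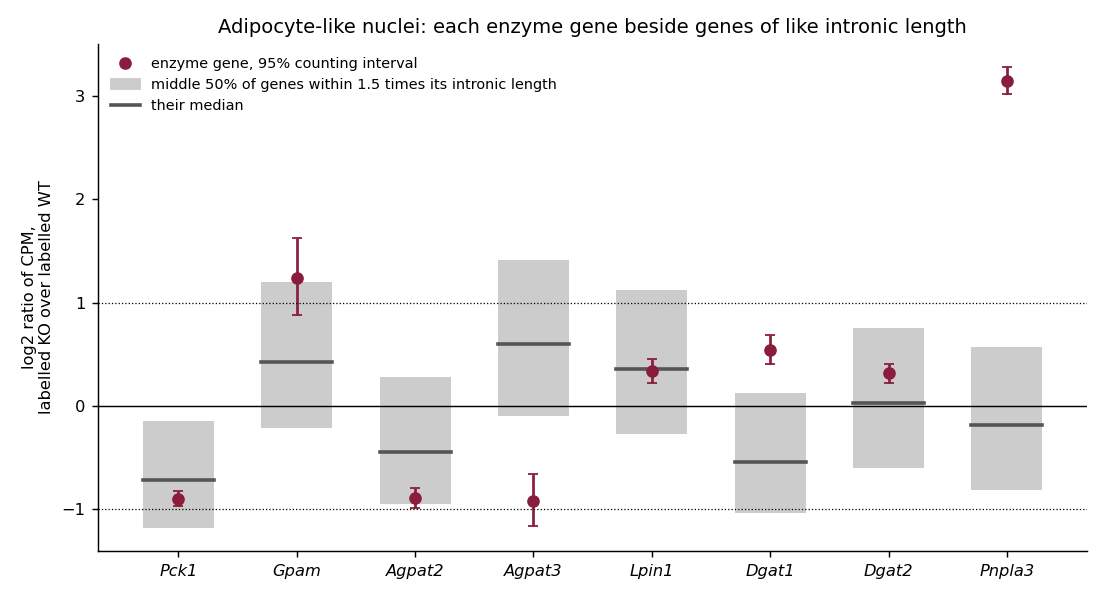
Log2 ratio of CPM in adipocyte-like nuclei, labelled KO over labelled WT, for each enzyme gene with its 95% counting interval, over grey boxes for the middle 50% and dark lines for the median of genes of like intronic length. Dotted lines mark a fold of 2. Pnpla3 at 3.15 and Dgat1 at 0.54 lie above their boxes, Gpam at 1.24 lies just above, Agpat3 at -0.92 lies below, and the other 4 lie inside.

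Pck1 encodes the cytosolic phosphoenolpyruvate carboxykinase, which supplies the glycerol backbone of triglyceride when glucose is scarce. The gene spans chr2:173153073-173159274. In adipocyte-like nuclei it had 2186 counts and 1119 CPM (1073 to 1167) in the WT-labelled library, and 5204 counts and 601 CPM (585 to 618) in the KO-labelled library. The ratio was 0.537 (0.511 to 0.565), at percentile 21.1 of all genes.

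Pck1 is short, and 725 genes of like intronic length had a median log2 ratio of -0.71, beside -0.90 for Pck1. It stood at percentile 39.6 among them, and a smooth fit on intronic length left a log2 ratio of -0.16. In other classes Pck1 was between 24.7 and 77.7 CPM. In ASPC-like nuclei it was 77.7 CPM in the WT-labelled library and 24.7 CPM in the KO-labelled library, a ratio of 0.318 (0.225 to 0.454), and its 58 counts in the WT-labelled library lay in only 3.02% of those nuclei. Lymphocyte-like nuclei, a class not known for this enzyme, held 33.1 and 25.7 CPM, so that the ASPC-like level of the KO-labelled library was at that of the comparison class.

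Gpam encodes the mitochondrial glycerol-3-phosphate acyltransferase, which makes the first committed step of the pathway. It lies at chr19:55067635-55127319 and overlaps 2 lncRNA genes of the annotation. It had 66 counts and 33.8 CPM (26.1 to 43.0) in adipocyte-like nuclei of the WT-labelled library and 692 counts and 80.0 CPM (74.1 to 86.2) in those of the KO-labelled library. The ratio of 2.37 (1.84 to 3.09) was at percentile 78.2 of all genes and at 75.9 among 1967 genes of like intronic length, whose median log2 ratio was 0.42. A smooth fit on intronic length left 0.80 of the log2 ratio of 1.24, and a fit on RefSeq spans left 0.83. Without mitochondrial genes and Malat1 in the total it was 0.99, so Gpam fell under a fold of 2 in each case. With so few counts in the WT-labelled library, 3 nuclei held 18.2% of its UMIs there.

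Outside adipocytes Gpam had few counts. It had 9 counts in 2008 lymphocyte-like nuclei of the WT-labelled library and 0 counts in 71 of the KO-labelled library, which allows up to 19.3 CPM. In ASPC-like nuclei it was 10.7 and 11.2 CPM, a ratio of 1.04 (0.477 to 2.59), so that a difference of the size seen in adipocytes was within the counting interval there. Myocyte-like nuclei of the KO-labelled library had 30.2 CPM (8 counts). Nuclei of the WT-labelled library whose clusters were left unnamed had 29.8 CPM (14 counts). The level in the unnamed nuclei lay near the 33.8 CPM of adipocyte-like nuclei of the same library. The myocyte-like level, with an interval of 13.1 to 59.6 CPM, lay under the 80.0 CPM of adipocyte-like nuclei of the KO-labelled library.

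Agpat2 encodes the acyltransferase that is needed for fat storage in adipocytes, and its loss causes lipodystrophy. It lies at chr2:26593057-26604417. It had 1139 counts and 583 CPM (550 to 618) in adipocyte-like nuclei of the WT-labelled library and 2723 counts and 315 CPM (303 to 327) in those of the KO-labelled library. The ratio was 0.540 (0.503 to 0.579), at percentile 21.3 of all genes and at 28.0 among 1815 genes of like intronic length.

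In myeloid-like nuclei the order of the libraries was the other way round for Agpat2. It was 26.1 CPM (23 counts) in the WT-labelled library and 70.2 CPM (191 counts) in the KO-labelled library, a ratio of 2.69 (1.74 to 4.34). Neither level was above that of lymphocyte-like nuclei, at 66.2 and 103 CPM, where the ratio was 1.55 (0.867 to 2.60). Myeloid-like nuclei too came mostly from different clusters, with 312 of 431 in cluster 7 in the WT-labelled library and 521 of 856 in cluster 3 in the KO-labelled library. In ASPC-like nuclei Agpat2 was 64.3 and 61.2 CPM, a ratio of 0.953 (0.693 to 1.33).

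Agpat3, a related acyltransferase of wider tissue distribution, lies at chr10:78269174-78352497. Its level in adipocyte-like nuclei was not above that of every other class. In the WT-labelled library it was 96.8 CPM in adipocyte-like nuclei, 2.03 times (1.45 to 2.90) the level in myeloid-like nuclei, but level with the 97.6 CPM of lymphocyte-like nuclei, a ratio of 0.992 (0.814 to 1.21). The ratios to ASPC-like and endothelial-like nuclei there were 1.27 and 1.35, with intervals that include 1. In the KO-labelled library it was 51.3 CPM in adipocyte-like nuclei, 0.644 (0.552 to 0.753) of the level in ASPC-like and 0.499 (0.304 to 0.881) of that in lymphocyte-like nuclei, while the ratio to myeloid-like nuclei was 0.963 (0.797 to 1.17).

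Adipocyte-like nuclei held 33.0% of all Agpat3 UMIs of the WT-labelled library and 48.5% of those of the KO-labelled library, beside 29.5% and 55.4% of the UMIs of all genes. Between the libraries its ratio in adipocyte-like nuclei was 0.530 (0.446 to 0.632), from 189 and 444 counts. It was 1.04 in ASPC-like, 1.12 in myeloid-like, 0.854 in endothelial-like and 1.05 in lymphocyte-like nuclei, each with an interval that includes 1. Long genes tended to higher ratios, and Agpat3 stood at percentile 7.78 among 1683 genes of like intronic length, whose median log2 ratio was 0.60. A smooth fit on intronic length moved its log2 ratio from -0.92 to -1.56. Subtracting the lymphocyte level moved it to -1.36, and both values are past a fold of 2.

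Lpin1 encodes lipin 1, the main phosphatidic acid phosphatase of adipocytes and also a transcriptional coactivator. It lies at chr12:16535669-16653903, and the neighbouring gene Ntsr2 overlaps its end. It had 710 counts and 363 CPM (337 to 391) in adipocyte-like nuclei of the WT-labelled library and 3973 counts and 459 CPM (445 to 474) in those of the KO-labelled library. The ratio of 1.26 (1.17 to 1.37) was at percentile 59.9 of all genes and at 48.9 among 2037 genes of like intronic length, and the fit on intronic length turned its log2 ratio from 0.34 to -0.051. That fit used 48377 intronic bases, from an older and shorter model of Lpin1 than the RefSeq span of 118235 bases. With RefSeq spans for all genes, a choice made after seeing the data, Lpin1 was at percentile 34.1 among 1382 genes of like span, whose median log2 ratio was 0.81, and the fit left -0.59.

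In ASPC-like nuclei Lpin1 was 46.9 CPM (35 counts) in the WT-labelled library and 30.2 CPM (100 counts) in the KO-labelled library, a ratio of 0.643 (0.434 to 0.975), beside 42.3 and 77.1 CPM in lymphocyte-like nuclei. Myocyte-like nuclei, all 52 from the KO-labelled library, had the next highest level after adipocytes at 227 CPM (173 to 292), and 59.6% of them had a UMI of Lpin1. Lipin 1 is known to be abundant in skeletal muscle.

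Dgat1 and Dgat2 encode unrelated enzymes that both make triglyceride from diacylglycerol. Dgat1, at chr15:76502012-76512021, had 494 counts and 253 CPM (231 to 276) in adipocyte-like nuclei of the WT-labelled library and 3192 counts and 369 CPM (356 to 382) in those of the KO-labelled library. The ratio was 1.46 (1.33 to 1.61). That is percentile 65.1 of all genes, but short genes tended to lower ratios, and Dgat1 was at percentile 83.1 among 1537 genes of like intronic length, whose median log2 ratio was -0.54.

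Dgat2, at chr7:99153663-99182713, had 1103 counts and 565 CPM (532 to 599) in the WT-labelled library and 6086 counts and 703 CPM (686 to 721) in the KO-labelled library. The ratio was 1.25 (1.17 to 1.33), at percentile 59.3 of all genes and at 60.7 among 2442 genes of like intronic length. In other classes Dgat2 was low and its ratios were 2.01 (1.37 to 3.03) in ASPC-like nuclei, with 40.2 and 80.5 CPM, and 2.20 (1.602 to 3.098) in myeloid-like nuclei, with 44 and 300 counts. Neither class was above lymphocyte-like nuclei, at 60.7 and 116 CPM, where the ratio was 1.90 (1.10 to 3.12). In endothelial-like nuclei, which fell in 1 cluster for both libraries, Dgat2 had only 5 and 31 counts, under the filter of 50, at 29.9 and 126 CPM, a ratio of 4.23 (1.63 to 13.9), and the level in the KO-labelled library was near that of lymphocyte-like nuclei. For Dgat1 the ratio was 0.919 (0.589 to 1.49) in ASPC-like, 1.34 (0.807 to 2.35) in myeloid-like and 1.94 (0.934 to 3.64) in lymphocyte-like nuclei, each with an interval that includes 1. Whether the 2 genes differ from each other in these classes was not tested.

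Pnpla3 encodes a patatin-like lipid hydrolase and transacylase, also called adiponutrin, whose mRNA in fat is known to follow feeding. It lies at chr15:84167776-84189521. In adipocyte-like nuclei it had 505 counts and 259 CPM (236 to 282) in the WT-labelled library and 19867 counts and 2296 CPM (2264 to 2328) in the KO-labelled library. The ratio of 8.88 (8.13 to 9.72) was at percentile 94.0 of all genes and at 96.8 among 2367 genes of like intronic length. The difference was not carried by a few nuclei: the 3 nuclei with most Pnpla3 UMIs held 2.00% of them in the KO-labelled library and 6.73% in the WT-labelled library.

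Of the 8 genes, Pnpla3 had the largest share of its UMIs in adipocyte-like nuclei. That class held 94.9% (92.7 to 96.6) of its UMIs in the WT-labelled library and 99.1% (98.9 to 99.2) in the KO-labelled library. Pck1 was next in both, at 91.9% and 96.3%. In the WT-labelled library Dgat2 followed at 82.5%, Agpat2 at 81.4%, Dgat1 at 76.2%, Lpin1 at 75.1% and Gpam at 62.9%. In the KO-labelled library the order was Dgat1 at 93.6%, Gpam at 91.2%, Lpin1 at 90.7%, Dgat2 at 90.1% and Agpat2 at 85.6%, and Agpat3 was last in both. The class held 29.5% of the UMIs of all genes in the WT-labelled and 55.4% in the KO-labelled library. Shares are thus ranked within a library only. In other classes Pnpla3 counts were low. They were 9 and 63 in ASPC-like nuclei, a ratio of 1.58 (0.780 to 3.61), 3 and 76 counts in myeloid-like nuclei, a ratio of 8.19 (2.70 to 40.6), 11 and 6 counts in lymphocyte-like nuclei, a ratio of 8.37 (2.54 to 24.7), and 0 and 11 counts in endothelial-like nuclei. Of the other classes with at least 50 nuclei, myocyte-like nuclei of the KO-labelled library had the highest Pnpla3 level. It was 102 CPM (67.3 to 148.5), from 27 counts, and 32.7% of these nuclei had a UMI. Per nucleus, the lymphocyte-like class had 0.453% of the adipocyte level in the WT-labelled library and 0.381% in the KO-labelled library, and the myeloid-like class 0.576% and 0.400%.

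To set levels of different genes side by side, CPM was divided by the RefSeq gene span, as nuclear RNA holds introns. The libraries are 3' libraries, which capture RNA by its A-rich stretches, and whether counts rise in proportion to span was not tested. Per kilobase of gene span, Pck1 was the highest member in the WT-labelled library at 180.5 CPM, followed by Agpat2 at 51.3, Dgat1 at 25.3, Dgat2 at 19.4, Pnpla3 at 11.9, Lpin1 at 3.07, Agpat3 at 1.16 and Gpam at 0.566. In the KO-labelled library the order was Pnpla3 at 106 CPM per kilobase, Pck1 at 97.0, Dgat1 at 36.9, Agpat2 at 27.7, Dgat2 at 24.2, Lpin1 at 3.88, Gpam at 1.34 and Agpat3 at 0.616. On this scale Pnpla3 was in the fifth place in the WT-labelled and the first in the KO-labelled library. Without division by span the order differs: in the KO-labelled library Pnpla3 at 2296 CPM was followed by Dgat2 at 703, Pck1 at 601, Lpin1 at 459 and Dgat1 at 369. Span counts introns in full, and whether reads in introns were counted is not given in the sources used here.

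Nuclei of the KO-labelled library were deeper, so each nucleus was thinned to 1000 UMIs before the shares with a UMI were set side by side. This kept 408 of 418 and 890 of 895 adipocyte-like nuclei. As a class that should lack most of these enzymes, lymphocyte-like nuclei were thinned alike, which left out 1006 of 2008 and 10 of 71, at median depths before thinning of 999 and 2172 UMIs.

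Pnpla3 was seen in 17.2% (13.6 to 21.2) of adipocyte-like nuclei of the WT-labelled library and in 77.4% (74.5 to 80.1) of those of the KO-labelled library, a difference of 60.3 percentage points (55.3 to 64.7). Before thinning the shares were 53.6% and 95.3%. In lymphocyte-like nuclei they were 0.599% and 4.92% at equal depth. Most adipocyte-like nuclei of the KO-labelled library thus held Pnpla3 RNA even at this shallow depth.

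Agpat2 went the other way, from 45.8% to 27.6% of adipocyte-like nuclei, a difference of -18.2 points (-24.0 to -12.4), and Pck1 from 52.5% to 42.8%, a difference of -9.64 points (-15.6 to -3.66). Lpin1 was seen in 25.2% and 38.2%, Dgat1 in 20.6% and 30.2%, and Gpam in 2.94% and 6.97%, each beyond counting error at this depth. Dgat2, in 38.5% and 43.1%, differed by 4.67 points (-1.24 to 10.5), which is within it. At 1000 UMIs the lymphocyte-like share of Agpat2, Pck1, Lpin1, Dgat1, Gpam and Dgat2 was at most 4.79% in the WT-labelled library and at most 13.1% in the KO-labelled library. Thinning to 500 and to 2000 UMIs left the differences of Pnpla3, Agpat2, Agpat3, Pck1 and Lpin1 in the same direction and beyond counting error. At 500 UMIs those of Dgat1, 3.43 points (-0.824 to 7.38), and Gpam, 0.991 points (-1.09 to 2.70), were within it, and at 2000 UMIs they were 10.96 (4.56 to 17.2) and 9.27 (5.67 to 12.4). Dgat2 differed by -0.746 points (-5.97 to 4.28) at 500 and by -1.12 points (-7.32 to 5.23) at 2000 UMIs, so that no direction can be given for its share.

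Agpat3 was seen in 9.56% of adipocyte-like and 8.18% of lymphocyte-like nuclei of the WT-labelled library, and in 4.38% and 8.20% in the KO-labelled library. Its share in adipocyte-like nuclei was thus near or under that of the comparison class in both libraries. Before thinning, the shares of the other genes in adipocyte-like nuclei ran from 12.4% for Gpam to 76.6% for Agpat2 in the WT-labelled library and from 41.6% for Gpam to 87.9% for Lpin1 in the KO-labelled library, Pnpla3 left aside.

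**Figure D3:**
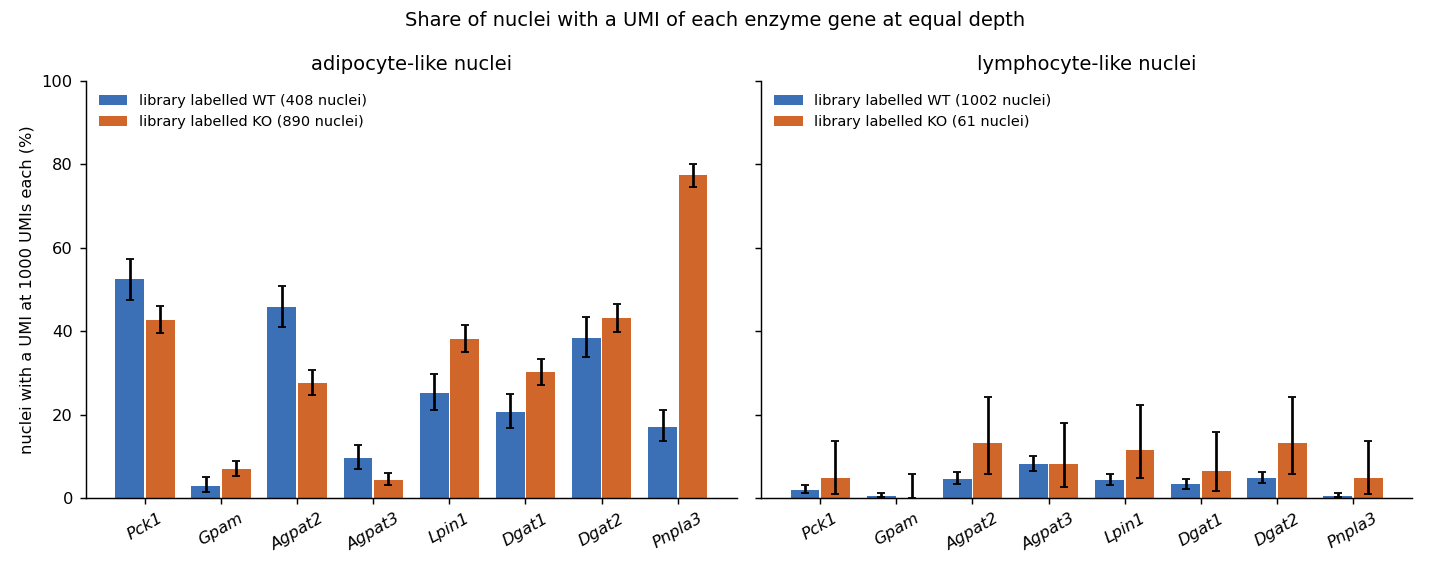
Share of nuclei with at least 1 UMI of each enzyme gene after thinning to 1000 UMIs, in adipocyte-like nuclei (left) and lymphocyte-like nuclei (right) of the WT-labelled library and the KO-labelled library, with exact Clopper-Pearson 95% intervals. The bars of Pnpla3 in adipocyte-like nuclei stand at 17.2% and 77.4%, and Agpat3 is as frequent in lymphocyte-like as in adipocyte-like nuclei of the WT-labelled library.

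At equal depth a median of 2 of the 8 genes was seen in an adipocyte-like nucleus of the WT-labelled library and 3 in one of the KO-labelled library. At least 3 were seen in 34.3% and 55.5% of nuclei, and none in 6.86% and 2.25%. Pnpla3 is among the 8 and its share went from 17.2% to 77.4%, while the shares of Agpat2, Agpat3 and Pck1 were lower in the KO-labelled library. Numbers per nucleus without Pnpla3 were not computed, so nothing is read from this rise about the other genes. Pck1 had the highest variance over mean between nuclei of the WT-labelled library, at 2.57, with up to 13 UMIs of 1000 in a nucleus. Pnpla3 had the highest in the KO-labelled library, at 1.99 with up to 14 UMIs, and Pck1 was next at 1.77. The other 6 genes lay between 0.954 and 1.30 in both libraries. Pck1 and Pnpla3 also had the highest means there, 1.25 and 2.25 UMIs. This measure can rise with the mean, so it does not show which gene was most uneven. In the KO-labelled library, Pck1 was seen in 40.2% of the 689 nuclei with Pnpla3 and in 51.7% of the 201 without it, and in the WT-labelled library in 52.9% of 70 and 52.4% of 338.

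When each library was clustered alone, the adipocyte-like nuclei of the WT-labelled library formed 1 cluster of 422 and those of the KO-labelled library formed 2, of 566 and 327 nuclei. The smaller one was deeper, with a median of 12325 UMIs per nucleus beside 6501. In it 9 of 10 adipocyte markers passed, all but Adipoq, beside 10 of 10 in the larger. Pck1 is among the leading genes of the larger cluster and Pnpla3 among those of the smaller, so the levels in them are a description.

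Pck1 differed between the clusters of the KO-labelled library. It was 1093 CPM (1061 to 1126) in the larger cluster, beside 1112 CPM (1067 to 1159) in the single cluster of the WT-labelled library, and 172 CPM (161 to 185) in the smaller one, 6.34 times lower than in the larger. At equal depth 60.1% of nuclei of the larger cluster and 15.9% of the smaller had a UMI of Pck1, beside 51.7% in the WT-labelled library. Pck1 was the only member past a fold of 2 between these clusters, where 5.44% of 10607 genes were at least 2 times higher in the smaller one and 4.15% at least 2 times lower.

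Dgat2 went against Pck1. It was 483 CPM (461 to 505) in the larger cluster, below the 555 CPM (523 to 588) of the WT-labelled library, and 897 CPM (869 to 924) in the smaller, a ratio of 1.86 (1.76 to 1.96) between them. Pnpla3 was high in both, at 1773 and 2757 CPM, beside 255 CPM in the WT-labelled library. Lpin1 was level between them, at 461 and 458 CPM, a ratio of 0.993 (0.932 to 1.06). The other ratios of smaller over larger were 1.31 for Dgat1, 1.30 for Gpam, 1.25 for Agpat2 and 0.738 for Agpat3. For Agpat2, Agpat3, Gpam, Lpin1, Dgat1 and Pnpla3, both clusters lay on the same side of the WT-labelled library with intervals that do not overlap its own. Both points of Pck1 were below it too, but the interval of the larger cluster overlaps it, and the points of Dgat2 lay on either side. The share of all genes that meet this rule was not counted. In adipocyte-like nuclei 36.3% of genes were higher and 35.2% lower beyond counting error, so nothing is read from how many members meet it.

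**Figure D4:**
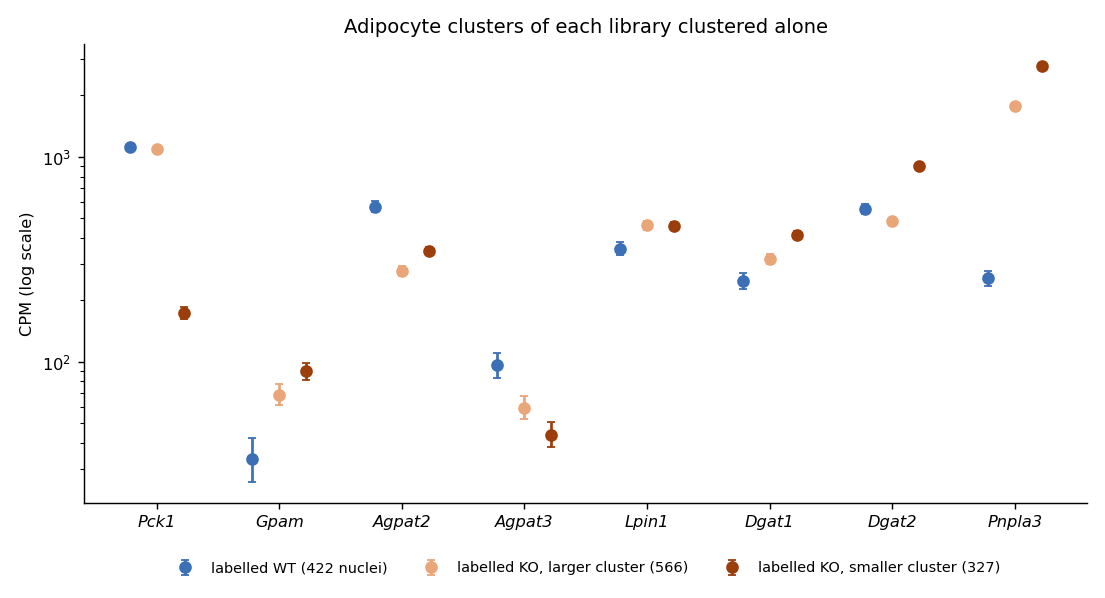
CPM (log axis) of each enzyme gene in the adipocyte clusters found when each library was clustered alone, 1 of the WT-labelled library and 2 of the KO-labelled library, with exact Poisson 95% intervals. Pck1 is at 1112 CPM in the WT-labelled library, 1093 in the larger and 172 in the smaller cluster of the KO-labelled library, and Pnpla3 is at 255, 1773 and 2757.

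A list of 43 other genes of glycerolipid metabolism (synthesis and its substrates, droplet assembly, 4 hydrolases and 5 transcription factors) was set beside the members, and 35 had 50 counts in adipocyte-like nuclei. At least 2 times higher in the KO-labelled library were 7 of the 35, where 25.9% of all genes tested were, and at least 2 times lower were 5, where 17.6% were, so that neither count stood above the background. The other 23 lay between. Of the 7, Mogat1, Plpp1, Tmem159 and Lclat1 had under 50 counts in the WT-labelled library and reached the filter through the deeper library in which they are high, so nothing is read from that count. The correction for intronic length changed which genes were past a fold of 2: of the 7 higher, Gpat4, Lclat1 and Plpp3 fell under it and Fitm2 came in, beside 18.1% of all genes, and of the 5 lower, Pck2, Agpat1 and Ctdnep1 fell under it and Gk, Acsl1 and Mlxipl came in, beside 12.6%. The genes past it with and without the correction were Plpp1, Mogat1, Tmem159 and Pparg, which were higher, and Agpat4 and Lpin2, which were lower. Since Plpp1, Mogat1 and Tmem159 reached the filter through the library in which they are high, nothing is read from their place here. The median log2 ratio of the 35 was 0.10. Of the 5 lower genes, 4 (Pck2, Agpat1, Agpat4 and Lpin2) were higher in lymphocyte-like than in adipocyte-like nuclei of the WT-labelled library, whose adipocyte-like class also held more lymphocyte marker UMIs (369 against 41.7 CPM), and the part of that in their ratios was not tested.

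Among the first acyltransferases, Gpat4 was 37.9 and 78.2 CPM, a ratio of 2.06 (1.62 to 2.66), beside 36.9 and 45.0 CPM in lymphocyte-like nuclei, while Gpat3, which acts in the same step, was 184 and 164 CPM, a ratio of 0.889 (0.791 to 1.00). Among the next, Agpat1 was 16.4 CPM (32 counts) and 7.40 CPM (64 counts), a ratio of 0.451 (0.291 to 0.713), beside 31.0 CPM and 0 counts in lymphocyte-like nuclei. Agpat4 was 15.9 CPM (31 counts) and 5.43 CPM (47 counts), a ratio of 0.342 (0.213 to 0.557), beside 43.6 and 57.8 CPM there. Lclat1, at 2.53 (1.69 to 3.93) with 0.24 of its log2 ratio of 1.34 left after the length correction, and Agpat5, at 1.13 (0.801 to 1.64), were also higher in lymphocyte-like than in adipocyte-like nuclei of both libraries. Of the lipins, Lpin2 was 30.2 CPM (59 counts) and 5.89 CPM (51 counts), a ratio of 0.195 (0.131 to 0.289), beside 1.26 for Lpin1, but lymphocyte-like nuclei held it at 80.0 and 25.7 CPM. The lipid phosphate phosphatases Plpp1, from 10 and 160 counts, and Plpp3 were at 3.61 (1.91 to 7.67) and 2.86 (2.52 to 3.27).

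Mogat1, which makes diacylglycerol from monoacylglycerol, had 5 and 101 counts, or 2.56 and 11.7 CPM, a ratio of 4.56 (1.89 to 14.3). In lymphocyte-like nuclei it was 0 and 12.8 CPM. The latter lies under the 19.3 CPM that 3 counts make in that class, so no order of the classes is read from it. In glycerol 3-phosphate supply none of the 6 genes tested was at least 2 times higher, where 25.9% of all genes tested were. With only 6 genes nothing is read from that count. Pck2, the mitochondrial form of the Pck1 enzyme, had only 22 and 34 counts, a ratio of 0.349 (0.198 to 0.626), and its 11.3 CPM in the WT-labelled library lay under the 50.7 CPM of lymphocyte-like nuclei. Gpd1, the glycerol 3-phosphate dehydrogenase, was 360 and 313 CPM, a ratio of 0.869 (0.800 to 0.946). None of the hydrolases of the same lipids reached a fold of 2, before or after the length correction. Most genes did not either: 25.9% were higher and 17.6% lower by that fold before it, and 18.1% and 12.6% after it. Pnpla2, the closest relative of Pnpla3 among these hydrolases and the main triglyceride lipase, was 242 and 282 CPM, a ratio of 1.16 (1.05 to 1.29). Lipe was at 1.33, Mgll at 1.22 and Abhd5 at 1.12. The correction moved the log2 ratio of Pnpla2 from 0.22 to 0.98, that of Lipe from 0.42 to 0.67 and that of Mgll from 0.29 to -0.56, so that of these 4 Mgll turned.

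In droplet assembly, Tmem159 was at 2.73 (1.71 to 4.62), from 19 and 230 counts. Ctdnep1, the phosphatase that acts on lipins, was at 0.442 (0.306 to 0.644), with 23.6 CPM in the WT-labelled library beside 20.9 CPM in lymphocyte-like nuclei. Of the transcription factors listed, Pparg, the main regulator of adipocyte genes, was 411 and 1842 CPM, a ratio of 4.48 (4.17 to 4.81). The lipogenic factors Srebf1 and Mlxipl were at 0.518 (0.460 to 0.584) and 0.505 (0.476 to 0.537), and neither reached a fold of 2 without the length correction. Pparg is a long gene, and the fit on intronic length left 1.09 of its log2 ratio of 2.16.

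Over 11 units, each a class in 1 library with at least 50 nuclei, the 5 genes whose profile was most like the mean profile of the members were Plin1 (Pearson r = 0.982), Chpt1 (0.976), Cox19 (0.975), Gpat3 (0.973) and Tmem45b (0.970). Plin1 coats lipid droplets and Chpt1 uses diacylglycerol to make phosphatidylcholine. The members themselves, each against the mean of the rest, ran from 0.944 for Agpat2 to 0.680 for Gpam, with Agpat3 apart at -0.041. The units come from 2 libraries and share their depth and free RNA. The adipocyte-like class was highest in both libraries for every member but Agpat3, so these values are a description.

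The ratios of the members were recomputed under 12 alternatives, of which a resolution of 0.2 left the adipocyte-like nuclei and so the ratios unchanged. The log2 ratio of Pnpla3 lay between 2.90 and 3.47 and that of Gpam between 0.80 and 1.54. Agpat2 lay between -1.14 and -0.44, Agpat3 between -1.56 and -0.62 and Pck1 between -1.15 and -0.16. Dgat1 lay between 0.29 and 1.06, Dgat2 between 0.064 and 0.61 and Lpin1 between -0.59 and 0.64.

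**Figure D5:**
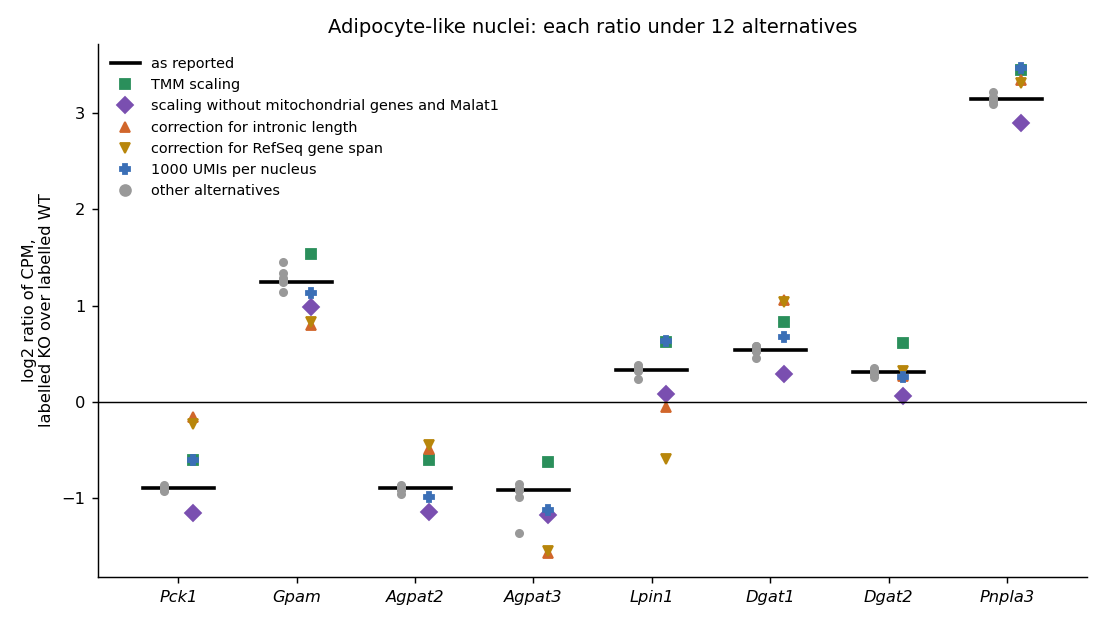
Log2 ratio of CPM in adipocyte-like nuclei, labelled KO over labelled WT, for each enzyme gene as reported (black line) and under 12 alternatives (points). Pnpla3 stays between 2.90 and 3.47, and of the 8 genes Lpin1 is the one with points on the other side of 0, at -0.051 and -0.59, both from corrections for gene length.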

How the data were processed

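Nuclei of iWAT from 1 pool of 3 mice per genotype were profiled with 10x 3' chemistry. What the authors deposited are raw UMI counts by gene and barcode, made with Cell Ranger (6.1.1 per the file headers), with 5000 barcodes per library. The submitters' processing notes name the build mm10 and Seurat 4. Whether introns were counted, and any removal of free RNA, are not given in the sources used here. The deposited tables held 9376351 UMIs (labelled WT) and 19655049 UMIs (labelled KO).

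Nuclei with at least 500 genes and at most 5% mitochondrial UMIs were kept. Scrublet in scanpy 1.11.5 marked 92 of 2944 nuclei (labelled KO) and 0 of 3649 (labelled WT), where the 146 with the highest scores were removed instead. Merged counts were clustered in Seurat 5.3.0 (R 4.3.3) with 2000 variable genes, 20 components and a resolution of 0.5, with no batch correction. Clusters were named from marker lists, and "like" marks such a name.

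Counts were summed per class and library and scaled to CPM. Intervals are exact Poisson (levels), Clopper-Pearson (shares) and conditional binomial (ratios) 95% intervals. For a difference between shares, the distances to the bounds were added in quadrature. The steps were tested on simulated data. Nuclei were thinned to 1000 UMIs, with 500 and 2000 as alternatives. A count of 0 allows up to 3 counts. Genes needed 50 counts over both libraries to be called. Intronic lengths came from an older gene annotation matched by Ensembl ID (93.7% of tested genes had one), positions and gene spans from RefSeq GRCm38.p6 (93.8% matched by symbol). TMM factors came from edgeR 4.0.16.

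The members, marker lists and gene lists were chosen with earlier results of these data known. All 8 members are named, other glycerolipid genes mainly where they passed a fold of 2, and 5 genes by likeness of log2(CPM + 10) profiles among genes with at least 200 counts. RefSeq lists genes that overlap 4 of the members in part (Gpam, Agpat3, Lpin1 and Pnpla3), and reads of such genes could be confused.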

Additional observations from a re-analysis of the deposited data

Results flagged for a closer look

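For 2 genes the libraries stood in the opposite order in another class than in adipocyte-like nuclei, with both counting intervals clear of 1. The share of all genes that meet this rule was not counted. In adipocyte-like nuclei 36.3% of genes were higher and 35.2% lower beyond counting error, so nothing is read from the number of members. The ratio of Agpat2, labelled KO over labelled WT, was 2.69 in myeloid-like and 0.540 in adipocyte-like nuclei. Its myeloid-like levels, 26.1 and 70.2 CPM, were not above those of lymphocyte-like nuclei, 66.2 and 103 CPM, where the ratio was 1.55. The ratio of Lpin1 was 0.643 in ASPC-like and 1.26 in adipocyte-like nuclei, with ASPC-like levels of 46.9 and 30.2 CPM beside 42.3 and 77.1 CPM in lymphocyte-like nuclei. The adipocyte-like log2 ratio of Lpin1 turned to -0.051 with the correction for intronic length and to -0.59 with that for RefSeq gene span. Its opposite order thus rests on uncorrected ratios, and the ASPC-like ratio was not corrected. With 1 library per genotype the difference between classes was not tested, and different clusters hold most of these classes in the 2 libraries.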

How the results depend on the processing

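Of the 8 log2 ratios, 7 kept their direction under all 12 alternatives, and Lpin1 turned to -0.051 under the correction for intronic length and to -0.59 under the correction for RefSeq gene span, which was added after seeing the data because the intronic length of Lpin1 came from a shorter gene model. The median log2 ratio of the 8 members, 0.33 as reported, became 0.62 with TMM factors, 0.074 when the total left out mitochondrial genes and Malat1, 0.11 after the correction for intronic length, 0.053 after that for RefSeq gene span and 0.45 at 1000 UMIs per nucleus. Members at least 2 times higher numbered 1 in place of 2 without mitochondrial genes and Malat1. After either length correction they still numbered 2, but were Pnpla3 and Dgat1 (1.06 and 1.04) in place of Pnpla3 and Gpam (0.80 and 0.83). Members at least 2 times lower, 0 as reported, numbered 3 without mitochondrial genes and Malat1, and 1 after either length correction, at 1000 UMIs per nucleus and with the lymphocyte level subtracted. As reported, Pck1, Agpat2 and Agpat3 sit close to that fold, so small shifts decide the count. Doublets left in, at least 1000 genes per nucleus, each library clustered alone, classes by marker UMIs and leaving out the 3 nuclei with most UMIs moved neither count. A resolution of 0.2 gave the same 418 and 895 adipocyte-like nuclei, so it could not move a value. The share of all genes that keep their direction under the alternatives was not counted. No paired analysis was possible because each genotype has 1 library. Depth limits Gpam, with 66 counts in adipocyte-like nuclei of the library labelled WT, and most members outside adipocytes. Replicate error is unknown.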
